A study of Mus musculus with 5 samples.

Results

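The genes followed here are 10 mouse cell cycle and proliferation genes, Cdkn1a, Ccnd1, Ccne1, Ccna2, Ccnb1, Cdk1, Mki67, Top2a, Mcm2 and Pcna, measured in liver. They were chosen by name, in a list drawn up with earlier results of these data known. The probes were taken without use of any measured value. Every probe of the array whose platform symbol, or an older synonym of it, is one of the 10 was taken. This gave 15 of 29922 probes, for 9 of the 16637 named genes. Cdk1 was found under its older symbol Cdc2a. No probe here was named Ccnb1, which is therefore not analysed here.

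The livers came from 5 groups of mice on a C57BL/6 background, kept on their diets for 16 weeks. Wild-type (WT) mice were fed high-fat food containing nordihydroguaiaretic acid (NDGA), 2.5 g in each kg, high-fat food alone, or chow. Mice of genotype ob/ob, which lack functional leptin and become obese on ordinary food, were fed chow containing the same amount of NDGA or chow alone. NDGA is a plant lignan known as a lipoxygenase inhibitor and antioxidant. RNA of 3 animals per group was used and each group has 1 array (Mouse OneArray, 1 colour, Cy5). The sources used here do not say whether the RNA was pooled, and give neither the age nor the sex of the mice. With 1 array in each group there is no replicate, no error between mice and no test, and every difference below is between 2 arrays.

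The cell cycle is driven by cyclin-dependent kinases (CDKs), which are active only when bound to a cyclin. D-type cyclins carry a cell through G1 and E-type cyclins into S phase, when the MCM helicase opens DNA and PCNA, the sliding clamp of DNA polymerase, keeps the polymerase on it. Cyclin A2, cyclin B1 and CDK1 then carry the cell through G2 and mitosis. Inhibitors such as p21, the product of Cdkn1a, bind cyclin-CDK complexes and stop them. Most hepatocytes of adult liver rest outside the cycle and can re-enter it after tissue loss or injury.

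Values are probe intensities as deposited or after quantile normalization between the 5 arrays, and differences are on the scale log2(intensity + 50). The deposited medians of all probes were 47.0 on WT high-fat with NDGA, 39.6 on WT high-fat, 71.0 on ob/ob chow with NDGA, 38.1 on ob/ob chow and 38.8 on WT chow. The array of NDGA-fed ob/ob mice thus had the highest median. Whether that is technical was not tested. As a background, 703 probes of olfactory receptor genes, which liver is not known to use, were read on the same arrays. A probe is called near background on an array when it does not exceed their 90th percentile there, which lay at deposited intensities of 319 on WT high-fat with NDGA, 204 on WT high-fat, 271 on ob/ob chow with NDGA, 220 on ob/ob chow and 264 on WT chow. Of the 9 named hepatocyte markers, among them Alb and Apoa1, 8 exceeded this level on every array, and Tat did not on any. For genes with 2 bright probes, the SD of a difference per probe was between 0.28 and 0.48 log2 units in the 4 main comparisons. This is the disagreement between 2 probes of a gene on the same pair of arrays. It leaves out errors that both probes share, and it is not a spread between mice.

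Only Cdkn1a, Ccnd1 and Pcna had a probe above background on all 5 arrays. The other 6 genes, with 8 probes, were near background on every array, at deposited intensities between -0.82 and 148. The share of all genes was close to this, as 61.8% were likewise near background on all 5 arrays. Against the 95th percentile of the olfactory receptor probes, 0 of the 9 genes had a probe above background on all 5 arrays: the best probe of Cdkn1a was above on 4, and those of Ccnd1 and Pcna on 3 each.

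**Figure D1:**
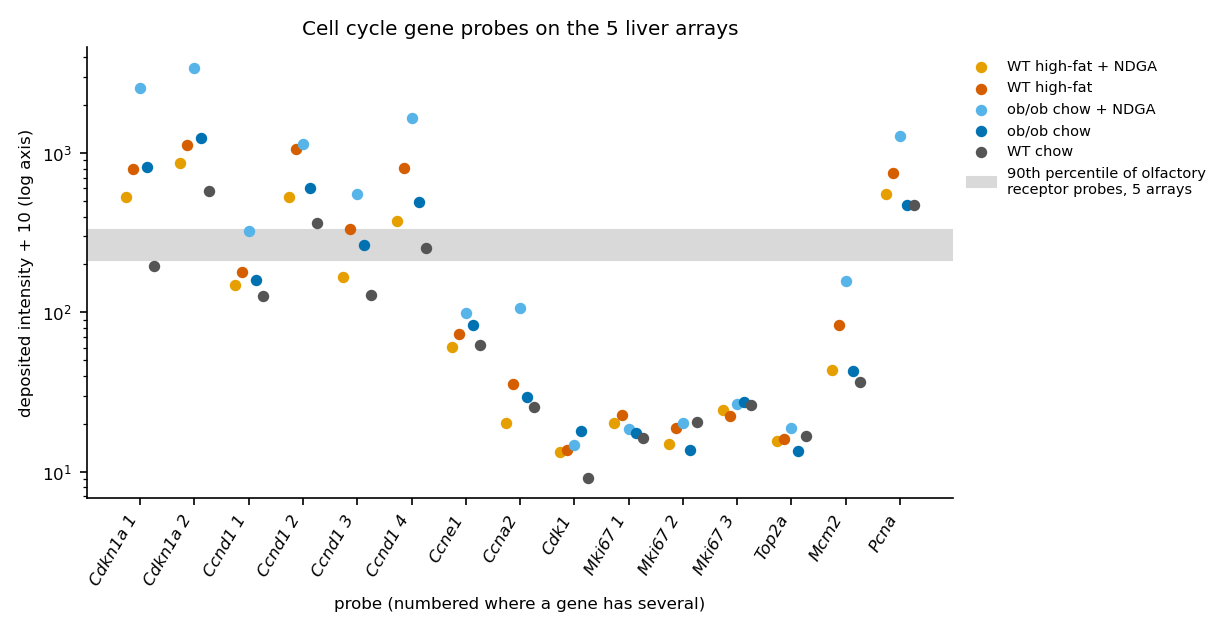
Deposited intensity plus 10, on a log axis, of the 15 probes of 9 cell cycle genes on 5 liver arrays, 1 point per array, with no error bars because each group has 1 array. The grey band spans the 90th percentile of olfactory receptor probes on the 5 arrays (204 to 319); all probes of Ccne1, Ccna2, Cdk1, Mki67, Top2a and Mcm2 lie below the level of their own array, while at least 1 probe of Cdkn1a, Ccnd1 and Pcna lies above it everywhere.

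Cdkn1a encodes p21, an inhibitor of cyclin-CDK complexes and a standard target of the tumour suppressor p53. Its brighter probe (mMR028209) read normalized intensities of 906 on WT high-fat with NDGA, 1210 on WT high-fat, 2335 on ob/ob chow with NDGA, 1618 on ob/ob chow and 625 on WT chow. Its second probe (mMC021344) read 537, 865, 1752, 1054 and 206 on the arrays in that order. Both probes placed the arrays in the same sequence, with WT chow lowest, then WT high-fat with NDGA, WT high-fat, ob/ob chow and ob/ob chow with NDGA. The span from the lowest to the highest array was 3.53-fold on the first probe and 7.04-fold on the second (intensity + 50).

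The region before the first RefSeq start of Cdkn1a is shown because it holds a p53 site, the known route to this gene. It is chr17:29090729-29090978 (GRCm38.p6, + strand, 250 bases, from RefSeq), and the capitals mark 2 p53 decamers without a spacer, allowing 1 mismatch. Such a match was present before 19 of 32851 starts in the RefSeq promoter table (0.0578%), and it begins 51 bases before the start (-51). The second start of the gene had no match. A match of letters is a description only, and binding was not measured.
Cdkn1a: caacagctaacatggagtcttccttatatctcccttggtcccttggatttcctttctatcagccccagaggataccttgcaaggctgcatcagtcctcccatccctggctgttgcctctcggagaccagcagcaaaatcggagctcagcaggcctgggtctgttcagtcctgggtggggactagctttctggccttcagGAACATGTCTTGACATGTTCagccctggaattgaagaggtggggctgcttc

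Ccnd1 encodes cyclin D1, the G1 cyclin that partners CDK4 and CDK6 and is induced when hepatocytes leave rest. Its probe with the highest mean (mMC024692) read normalized intensities of 542 on WT high-fat with NDGA, 1146 on WT high-fat, 763 on ob/ob chow with NDGA, 775 on ob/ob chow and 394 on WT chow. The probe mMR030527 read 378, 882, 1132, 625 and 270 on these arrays in the same order, and mMR027630 read 160, 360, 377, 327 and 130. The fourth probe, mMC006228, was above background only on ob/ob chow with NDGA and covered a smaller range, from 130 on WT chow to 222 on ob/ob chow with NDGA. All 4 probes had WT chow lowest and WT high-fat with NDGA next. They did not share a highest array: it was WT high-fat for mMC024692 and ob/ob chow with NDGA for the other 3.

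Ccne1 encodes cyclin E1, which acts with CDK2 at entry into S phase. It read deposited intensities of 51.0 on WT high-fat with NDGA, 63.7 on WT high-fat, 89.4 on ob/ob chow with NDGA, 73.4 on ob/ob chow and 52.3 on WT chow, near background on all 5. No log2 difference of Ccne1 in the 4 main comparisons exceeded 0.35 in size.

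Pcna had 1 probe, which read normalized intensities of 570 on WT high-fat with NDGA, 823 on WT high-fat, 868 on ob/ob chow with NDGA, 601 on ob/ob chow and 511 on WT chow. Mcm2, a subunit of the MCM helicase, read 33.3, 83.1, 105, 39.8 and 32.1 on those arrays in the same order. The Mcm2 probe was near background everywhere, although against the 75th percentile of the olfactory receptor probes it was above on WT high-fat and on ob/ob chow with NDGA. Both genes ordered the arrays alike, with WT high-fat and ob/ob chow with NDGA as the highest. In the deposited values ob/ob chow lay below WT high-fat with NDGA for both genes, at 465 and 546 for Pcna and at 32.6 and 33.4 for Mcm2, with WT chow still the lowest.

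The 7 probes of Cdkn1a, Ccnd1 and Pcna, the genes with a probe above background, all had WT chow as their lowest array and WT high-fat with NDGA as the next. Of 8319 genes whose mean over the 5 arrays reached the median of all genes, 16.3% had WT chow lowest and 7.24% had this sequence of the lowest arrays. In the deposited values the 7 probes again had WT chow lowest, against 14.6% of genes, and 6 of the 7 had WT high-fat with NDGA next, against 4.29%. The order was noticed in these values and probes of 1 gene share their RNA, so the shares are a description. Mcm2 and Cdk1 had the same lowest arrays after normalization, near background, where the order cannot be read.

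The remaining genes mark cells in S phase, G2 and mitosis. Ccna2, which encodes cyclin A2, read deposited intensities of 10.4 on WT high-fat with NDGA, 25.4 on WT high-fat, 96.0 on ob/ob chow with NDGA, 19.3 on ob/ob chow and 15.6 on WT chow. Its value on ob/ob chow with NDGA was the highest of the 5, yet below the olfactory receptor level of that array. Cdk1, the mitotic kinase, read 3.33, 3.78, 4.68, 7.93 and -0.82 in the same order of arrays. Top2a, the topoisomerase that untangles replicated chromosomes, read 5.51, 6.13, 8.82, 3.55 and 6.76. Mki67, which encodes the proliferation antigen Ki-67, had 3 probes with deposited intensities from 3.71 to 17.4 over the 5 arrays.

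The values of Cdk1, Top2a and Mki67 cover -0.82 to 17.4, where no order between arrays can be read. The 3 probes of Mki67 ranked the arrays in 3 different ways, with log2 differences between -0.19 and 0.19 in the 4 main comparisons. A difference in proliferation was not detectable on these probes.

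The promoters of these genes at the bottom of the scale are shown beside that of Pcna, since mitotic genes are known to share CCAAT boxes, bound by NF-Y, and the cell cycle homology region (CHR), through which the DREAM complex silences them in resting cells. The 250 bases before the start, from RefSeq (GRCm38.p6), are chr10:69352913-69353162 for Cdk1, chr7:135716380-135716629 for Mki67, chr11:99024190-99024439 for Top2a and chr2:132253181-132253430 for Pcna, all on the - strand. Capitals mark the CCAAT box (CCAAT), the CHR (TTTGAA) and the E2F site (TTTCCCGC, TTTCGCGC, TTTGCCGC or TTTGGCGC), searched on both strands; the matches do not overlap one another.
Cdk1: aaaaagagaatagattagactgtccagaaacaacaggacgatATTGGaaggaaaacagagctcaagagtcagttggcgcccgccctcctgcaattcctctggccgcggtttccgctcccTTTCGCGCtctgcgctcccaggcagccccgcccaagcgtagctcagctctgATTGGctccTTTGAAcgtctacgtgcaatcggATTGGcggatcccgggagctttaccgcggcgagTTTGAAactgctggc
Mki67: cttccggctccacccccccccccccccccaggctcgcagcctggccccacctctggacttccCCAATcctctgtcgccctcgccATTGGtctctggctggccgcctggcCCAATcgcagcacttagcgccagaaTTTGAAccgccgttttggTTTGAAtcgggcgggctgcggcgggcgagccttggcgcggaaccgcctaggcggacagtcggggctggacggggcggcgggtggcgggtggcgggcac
Top2a: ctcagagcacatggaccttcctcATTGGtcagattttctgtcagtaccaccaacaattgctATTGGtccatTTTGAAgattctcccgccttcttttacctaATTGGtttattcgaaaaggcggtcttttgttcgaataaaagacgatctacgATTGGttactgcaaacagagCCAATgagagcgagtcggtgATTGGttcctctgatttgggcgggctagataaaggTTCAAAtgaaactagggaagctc
Pcna: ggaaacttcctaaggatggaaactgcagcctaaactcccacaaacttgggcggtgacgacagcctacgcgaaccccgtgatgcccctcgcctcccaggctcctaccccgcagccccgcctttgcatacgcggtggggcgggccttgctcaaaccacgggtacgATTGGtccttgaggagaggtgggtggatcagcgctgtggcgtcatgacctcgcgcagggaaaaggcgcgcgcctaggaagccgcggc

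Cdk1 had 3 CCAAT boxes, 2 CHRs and 1 E2F site in this window. Mki67 had 3 CCAAT boxes and 2 CHRs, Top2a had 6 and 2, and Pcna had 1 CCAAT box and no CHR. Of the genes not shown, Mcm2 had 1 CCAAT box and 1 CHR, and Ccnb1 had 2 CCAAT boxes and no CHR. Ccne1, near background on all arrays, had none of these sites, and neither did the starts of Cdkn1a. The CHR was thus found for Cdk1, Mki67, Top2a and Mcm2, all near background, and for neither Pcna nor Cdkn1a. The CCAAT box was found for genes of both kinds. Pcna and Cdkn1a were the only genes above background with an entry, so whether the sites go with brightness cannot be read. Of the 9 starts found for 8 of the genes, Ccnb1 included, 6 held a CCAAT box, 4 a CHR and 1 an E2F site. Among all 32851 starts in the table, 33.8% held a CCAAT box, 16.0% a CHR and 1.86% an E2F site. The table gave no entry for Ccnd1 and Ccna2. Only the exact letters given above were searched, so other spellings of a site were not counted. What binds these sites in the livers was not measured.

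The first comparison, WT mice on high-fat diet against WT mice on chow, addresses obesity caused by food. Cyclin D1 was 2.69-fold higher on the high-fat array, with normalized intensities of 1146 on high-fat diet and 394 on chow (log2 difference 1.43). Its 4 probes were all higher, by 1.14 ± 0.51 on average (SD between 4 probes of 1 array pair, not between mice). Cdkn1a was higher by 0.90 on its brighter probe and by 1.84 on the other, and Pcna by 0.64. Mcm2 was at 0.70, near background.

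A gene was counted in a comparison when the mean of its 2 arrays reached the median of all genes. The 3 counted of the 9 genes were Cdkn1a, Ccnd1 and Pcna in each comparison, and their median was 0.90, against -0.01 over all 8319 counted genes. Ccnd1 alone was at least 2-fold higher, where 2.13% of counted genes were, and 0 of the 3 were at least 2-fold lower, where 1.33% were. Ccnd1 ranked 43rd and Cdkn1a 264th of the 8319 from the highest difference. Over both its probes Cdkn1a was also over 2-fold higher (1.37).

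The second comparison, NDGA in high-fat food against high-fat food alone, addresses the compound in WT mice. Cyclin D1 was lower with NDGA on all 4 probes. The probe with the highest mean read 542 with NDGA and 1146 without (log2 difference -1.01, 2.02-fold), and the mean over the 4 probes was -0.86 ± 0.36 (SD between probes). Pcna was lower by 0.49 (-0.49), and Cdkn1a was at -0.40 and -0.64 on its probes. Mcm2 was at -0.68, near background.

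Ccnd1 was the 1 gene of the 3 counted at least 2-fold lower with NDGA, where 1.56% of counted genes were, and 0 were at least 2-fold higher, where 0.902% were. The call lay at the threshold: Ccnd1 was at -0.95 without normalization, at -0.99 after a loess correction and at -0.86 over its 4 probes. The median of the 3 was -0.49, against -0.03 over all counted genes. Against WT chow, WT high-fat with NDGA remained higher by 0.42 for Ccnd1, 0.50 for Cdkn1a and 0.14 for Pcna. In that comparison 0 of the 3 genes were at least 2-fold higher or lower, where 0.829% and 0.649% of counted genes were.

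The comparison of ob/ob with WT mice, both fed chow, addresses obesity caused by loss of leptin. Cdkn1a was the most changed, at normalized intensities of 1618 in ob/ob and 625 in WT on its brighter probe (log2 difference 1.30, 2.47-fold) and at 1054 in ob/ob and 206 in WT on the other (2.11). Cyclin D1 was higher on all 4 probes, by 0.89 on the probe with the highest mean and by 0.86 ± 0.32 as the mean of 4 (SD between probes). Pcna was at 0.21, or 0.01 without normalization, and Mcm2 at 0.13. Cdkn1a alone of the 3 counted was at least 2-fold higher, where 1.03% of counted genes were, and 0 were at least 2-fold lower, where 1.79% were. It ranked 43rd of 8319 genes from the highest difference, and Ccnd1 ranked 113th.

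The last main comparison, NDGA in chow against chow alone in ob/ob mice, addresses the compound without high-fat food. Cdkn1a read 2335 with NDGA and 1618 without on its brighter probe (log2 difference 0.52), and 0.71 was found on the other. Pcna was at 0.50, Mcm2 at 0.79 and Ccna2 at 0.68, with Mcm2 and Ccna2 near background. Ccnd1 was not displaced in 1 direction: its 4 probes gave -0.02, 0.20, 0.18 and 0.81. None of the 3 counted genes was at least 2-fold higher or lower. The shares over all counted genes were 6.74% for at least 2-fold higher and 0.505% for lower.

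These values change with the scaling of the arrays. Over all counted genes the median difference between NDGA and chow in ob/ob mice was -0.09 after quantile normalization, 0.22 after median centring and 0.68 without normalization. Cdkn1a stood at 0.52, 0.98 and 1.44 in these settings, Pcna at 0.50, 0.89 and 1.35, and Ccnd1 at -0.02, 0.41 and 0.86. Each of these genes stood above the median of all counted genes in each of the 3 settings, Ccnd1 by the least. Against WT chow, ob/ob chow with NDGA was higher by 1.82 for Cdkn1a (3.53-fold), 0.87 for Ccnd1 and 0.71 for Pcna. Cdkn1a alone of the 3 was at least 2-fold higher there, where 7.46% of counted genes were, and 0 were at least 2-fold lower, where 3.21% were.

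**Figure D2:**
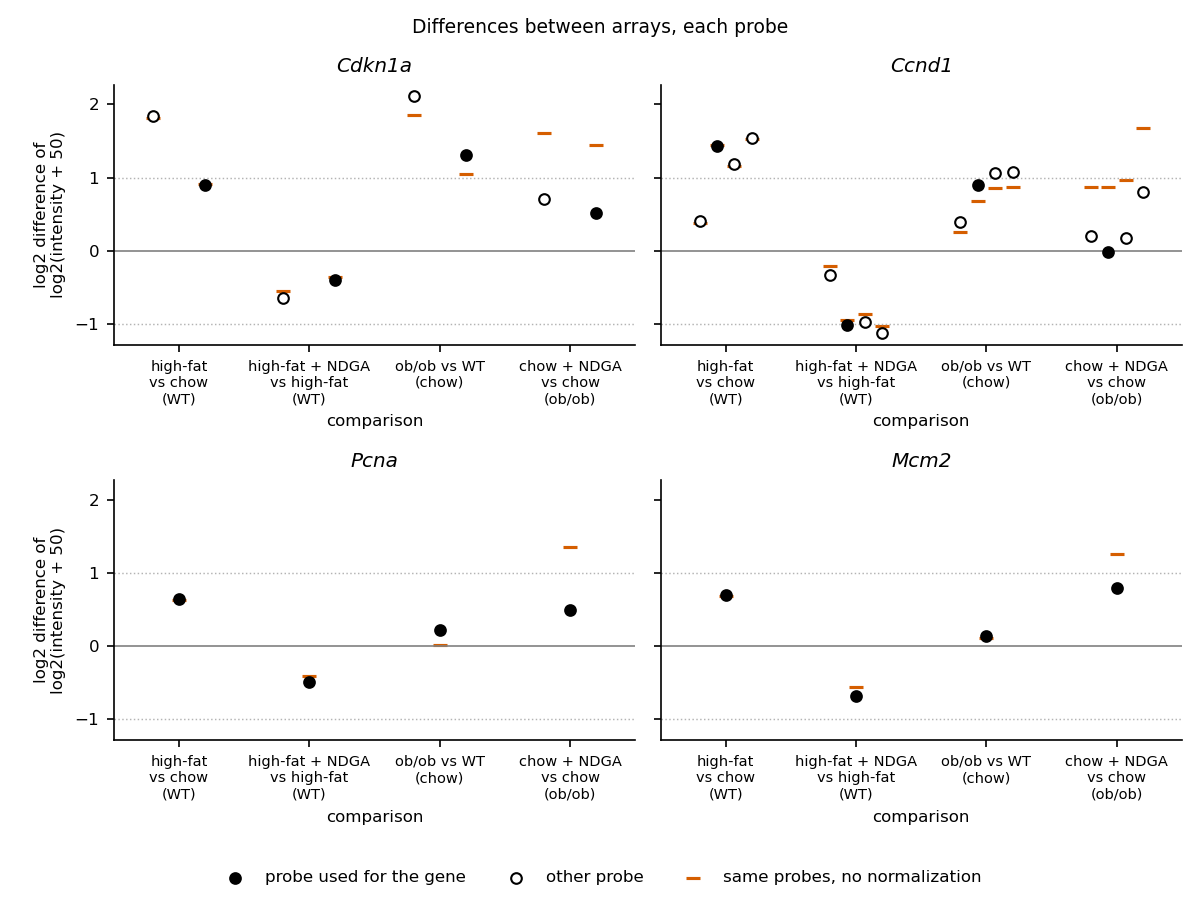
Log2 differences between arrays for every probe of Cdkn1a, Ccnd1, Pcna and Mcm2 in the 4 main comparisons. Filled points are the probe used for the gene, open points its other probes, orange bars the same probes without normalization, and dotted lines mark 2-fold; the probes lie above 0 for high-fat diet and below 0 for NDGA on it, and the orange bars move furthest from the points for NDGA in ob/ob mice.

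The wider machinery was read through 8 lists of genes, none of which holds a member. Of 32 named DNA replication genes 25, and of 48 named mitosis genes 40, were near background on all 5 arrays, among them Aurka, Aurkb, Plk1, Bub1 and Rrm2. On high-fat diet the list medians ran from -0.32 for 11 counted early response genes (4 above 0) and -0.23 for 9 genes of E2F and pocket proteins (3 above 0) to 0.13 for 15 mitosis genes, against -0.01 over all genes. They were -0.13 for 10 replication genes and 0.08 for 12 p53 targets. At least 2-fold higher were Mcm6, another subunit of the MCM helicase (1.11, deposited intensity 351 on high-fat diet and 139.5 on chow, near background on chow), Cenpa, the centromeric histone H3 variant (1.04), and Ccng1, the p53 target cyclin G1 (1.00, with 0.95 over both its probes). Klf6, an early response transcription factor, was higher by 1.22, with 0.95 over both its probes. Cdk6, a partner of cyclin D, was lower (-1.35), as was Gadd45g, a growth arrest gene (-1.45). E2f7, a repressor of E2F targets, was lower by far (-5.06), on a probe that read 2962 on WT chow and between 39.9 and 65.8 on the other 4 arrays, near background there.

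With NDGA on the high-fat diet, Mcm6 was lower (-1.35, deposited intensity 121 with NDGA, near background, and 351 without), and so were Cenpa (-1.14) and Inhbe, an activin subunit made by hepatocytes (-1.09). The medians were -0.15 for 10 replication genes, -0.12 for 16 mitosis genes and -0.11 for 11 p53 targets, against -0.03 over all genes. In each of these 3 lists at most 1 counted gene was at least 2-fold lower, and 0 were at least 2-fold higher. Of all counted genes 1.56% were lower and 0.902% higher by this much. Other lists had medians above 0: 0.17 for 3 G1 cyclins and kinases, 0.15 for 8 E2F and pocket proteins and 0.22 for 11 early response genes. The median was -0.04 for 2 CDK inhibitors and -0.25 for 13 hepatocyte growth factors and receptors.

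In ob/ob against WT on chow, Klf6 was higher by 1.01, with 0.86 over both its probes. Egfr, a growth factor receptor of hepatocytes, was lower (-1.95, deposited intensity 194 in ob/ob, near background, and 983 in WT), with Cdk6 (-1.69, also near background in ob/ob) and the replication factor Mcm10 (-1.46). E2f7 was again lower (-4.83), with WT chow as the same bright array. The 12 counted p53 targets had a median of 0.04, and Ccng1 was at 0.54. None of the 12 was at least 2-fold apart, where 1.03% of all counted genes were higher and 1.79% lower. The mitosis list had a median of 0.23, with Cdc20 (0.85, with 0.14 over its 3 probes) and Prc1 (0.82) the furthest.

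In NDGA-fed ob/ob against ob/ob on chow, Rpa1, which coats single-stranded DNA, was higher (deposited intensity 1301 with NDGA and 224 without), with Klf6 (1.49) and the p53 target kinase Plk3 (1.09). Ccn2, a matrix protein and target of YAP, read 1259 with NDGA and 182 without, and Ccnh, the cyclin of CDK7, read 294 with NDGA and 45.7 without. Both were above background on the NDGA-fed ob/ob array alone, so no fold is given for them. Their deposited values are not scaled between arrays, and the median of the NDGA-fed ob/ob array was the highest. The medians were 0.29 for 12 replication genes, -0.16 for 16 mitosis genes, 0.21 for 11 p53 targets, -0.42 for 8 genes of E2F and pocket proteins and -0.42 for 12 early response genes, against -0.09 over all counted genes. Without normalization they were 1.02, 0.64, 1.08, 0.37 and 0.46 in that order, against 0.68.

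**Figure D3:**
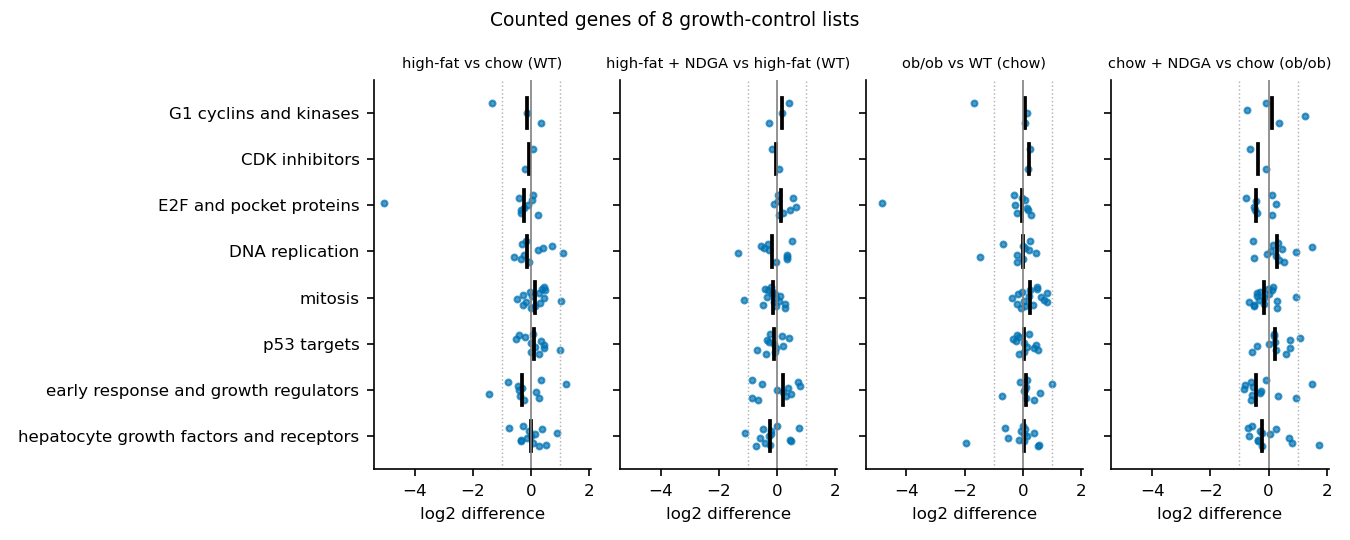
Log2 differences of the counted genes of 8 lists of growth control genes in the 4 main comparisons, 1 point per gene, with the list median as a black bar and 2-fold as dotted lines. The list medians lie between -0.42 and 0.29, and the far left points in the high-fat and ob/ob panels are E2f7, which was bright on the WT chow array alone.

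Other cell types moved on the same arrays. Of 11 counted macrophage markers 5 were at least 2-fold higher on high-fat diet (median 0.81), where 2.13% of all counted genes were. With NDGA on it 5 of 11 were at least 2-fold lower (median -0.96), where 1.56% were. In ob/ob 3 of 11 were at least 2-fold higher (median 0.89), where 1.03% were. The summed normalized intensity of the 13 named markers was 6271 on WT high-fat with NDGA, 11890 on WT high-fat, 13950 on ob/ob chow with NDGA, 15320 on ob/ob chow and 7465 on WT chow, and Cd163 and Lyz2 were near background on all. Stellate cell markers had medians of 0.89, -0.84 and 0.73 in those comparisons, and their sum over 11 named was 5121, 7279, 6830, 6150 and 3151 on the arrays in the same order, with Col1a1, Lrat, Pdgfrb, Timp1 and Tagln near background throughout. Adgre1, a macrophage surface receptor, was at 1.25 on high-fat diet, and the collagen gene Col1a2 at 2.39.

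The low arrays of these sums were WT chow and WT high-fat with NDGA, as they were for Cdkn1a, Ccnd1 and Pcna. Of 8319 genes whose mean reached the median of all genes, 17.3% likewise had both arrays below the other 3. The sum of bile duct markers had the same low arrays (3751 on WT high-fat with NDGA, 4125 on WT chow, 5422 to 6484 elsewhere). Spp1 had this pattern, with deposited intensities of 1216 and 1213 on these arrays and 2592 to 7059 elsewhere. The list as a whole did not: over 5 counted bile duct markers the medians were -0.14, 0.02 and 0.20 in the first 3 comparisons. The sums for sinusoidal endothelium, lymphocytes, neutrophils, erythroid cells, skeletal muscle and hepatocytes did not. For sinusoidal endothelium the sum holds the bright Clec4g, and the counted markers went as those of macrophages did. Their medians were 0.29 on high-fat diet (5 of 7 above 0), -0.395 with NDGA on it (0 of 8 above 0) and 0.38 in ob/ob (7 of 7 above 0). The part of macrophages, stellate cells or other cell types in the cell cycle values was not tested. In NDGA-fed ob/ob against ob/ob on chow the macrophage median was 0.08 (2 of 12 at least 2-fold higher) and the stellate cell median 0.24 (0 of 9). Of all counted genes 6.74% were at least 2-fold higher there. In whole liver, more cells of a type and more RNA per cell cannot be told apart. Skeletal muscle markers were higher on WT high-fat with NDGA than on WT high-fat. Of 11 counted 8 were at least 2-fold higher, where 0.902% of all counted genes were. The summed normalized intensity of 16 markers was 13590 against 3630. On ob/ob chow with NDGA 2 of 7 counted were at least 2-fold higher than on ob/ob chow, where 6.74% of all counted genes were. The sum was 5110 against 4018. On ob/ob chow with NDGA 8 of the 16 were above background, against 5 on ob/ob chow. The part of muscle in the values of these arrays was not tested. Lymphocyte markers had medians of -0.40, 0.39 and -0.35 over 3 counted genes in the first 3 comparisons, and -0.06, 0.10 and -0.004 over all 9 named.

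The genes with the profile nearest to Cdkn1a over the 5 arrays, by root mean square distance of centred log2 values, were Synpo (0.13), Cyp2b13 (0.13), Tgfbr2 (0.16), Nudt18 (0.16) and Haus8 (0.17), among 8318 genes with a median distance of 0.66. Cyp2b13 is a cytochrome P450 of female-biased expression in liver, Tgfbr2 a receptor of TGF-beta, and Haus8 a subunit of the augmin complex of the mitotic spindle. Nearest to Ccnd1 were Plac8 (0.14), the neutrophil chemokine gene Cxcl1 (0.15), the matrix protein gene Tgfbi (0.15), Gpc1 (0.16) and the p53 target Ccng1 (0.17), with a median distance of 0.52. Pcna ranked 213th from Ccnd1 and 776th from Cdkn1a, and Ccnd1 ranked 1227th from Cdkn1a. The profile of Ccnd1 is that of its probe mMC024692, highest on WT high-fat, while its other probes were highest on ob/ob chow with NDGA. The neighbours of Ccnd1 depend on that choice. With 5 points per gene, likeness is a description of these arrays.

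**Figure D4:**
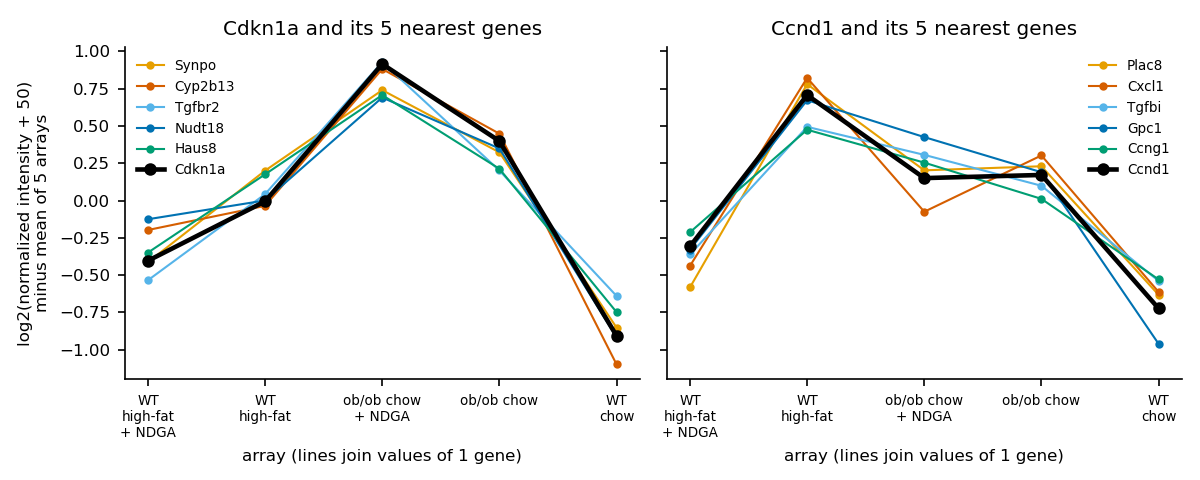
Centred log2(normalized intensity + 50) of Cdkn1a and of Ccnd1 (black) and of the 5 genes nearest to each (coloured) on the 5 arrays, 1 value per array. Cdkn1a and its neighbours are highest on ob/ob chow with NDGA and lowest on WT chow. Ccnd1, by its probe mMC024692, is highest on WT high-fat and lowest on WT chow. Its other probes, not drawn, are highest on ob/ob chow with NDGA.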

How the data were processed

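Liver RNA of 5 groups was read in 1 colour on Phalanx Mouse OneArray slides, per the labels. The deposited values are linear probe intensities, judged from values that run from below 0 to a pile-up near 65000. The sources used here do not give the scanner, background correction or scaling. The platform table gave 1 gene symbol for 21020 of 29922 probes, several for 0 and none for 8902. Symbols were brought up to date with RefSeq (GRCm38.p6): 17558 current, 3410 replaced, 52 kept, giving 16637 genes.

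Values were quantile normalized between the 5 arrays and log2(value + 50) was taken; this understates changes of dim genes. The probe with the highest mean stood for its gene. A gene was counted when the mean of the 2 arrays reached the median of all genes, and called at a log2 difference of 1 (2-fold). With 1 array per group no test was made, and the precision between mice is unknown. The number of arrays limits the precision. Steps were tested on simulated data with Python 3.11.15, numpy 2.4.6 and pandas 2.3.3. There were 8 alternatives.

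The members and lists were chosen with earlier results of these data known. Named were every member, the list genes at least 2-fold apart (otherwise the 2 furthest), the 2 furthest genes of a marker list and the 5 nearest profiles; not all are printed.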

Additional observations from a re-analysis of the deposited data

Results flagged for a closer look

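Cdkn1a and Pcna are given a closer look because NDGA went with opposite signs in ob/ob mice on chow and in WT mice on the high-fat diet. Cdkn1a was at 0.52 in ob/ob and -0.40 in WT, a difference of 0.91 log2 units. Pcna was at 0.50 in ob/ob and -0.49 in WT, a difference of 0.99. The signs stayed opposite under the 8 alternatives run, but not all of these could move the values. The filter settings change only which genes are counted, and raising dim values to a floor left both genes as they were. The mean of all probes cannot move Pcna. The difference was not tested, since each value comes from 1 pair of arrays. The SD per probe was 0.48 for NDGA in ob/ob and 0.34 for NDGA in WT, and Pcna had 1 probe. Genotype and diet both differ between the 2 comparisons and cannot be told apart. Of 8071 genes counted in both comparisons, 35.5% were likewise lower with NDGA in WT and higher in ob/ob. The difference was at least as large as that of Cdkn1a in 18.2% of the 8071, and as that of Pcna in 16.6%.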

How the results depend on the processing

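Over 9 genes and 6 comparisons, 311 of the alternative values stayed within the SD per probe of the main one and 13 moved beyond it. No called value changed sign. The tally says little about stability, because 6 of the genes were near background, where the offset of 50 keeps differences small. Some settings also could not move a value, such as the mean of probes for a gene with 1 probe. For NDGA in ob/ob, Ccnd1, not called, turned positive without normalization (0.86), with median centring (0.41), loess (0.16) and the mean of probes (0.29). Ccne1 turned positive in that comparison without normalization (0.18). Without normalization, NDGA in ob/ob gave 2 genes at least 2-fold higher in place of 0 (median 1.35), where 32.4% of all counted genes were. In that setting NDGA-fed ob/ob against WT chow gave 3 higher in place of 1 (median 1.54), where 26.8% were. NDGA on high-fat diet gave 0 lower in place of 1, where 1.11% were. Median centring gave 2 higher for NDGA-fed ob/ob against WT chow, where 11.8% of all counted genes were. The loess correction gave 0 lower for NDGA on high-fat diet, where 1.33% were. With the mean of all probes, 2 genes were higher for high-fat diet and for NDGA-fed ob/ob against WT chow, where 1.72% and 6.52% of all counted genes were. In that setting 0 were lower for NDGA on high-fat diet, where 1.35% were, and the median for ob/ob against WT was 0.60. With no filter, which adds 6 dim genes, the medians were 0.27 for high-fat diet, 0.21 for ob/ob and 0.022 for WT high-fat with NDGA against WT chow. The cause was not tested beyond what these settings change by construction. Probes near background on all arrays numbered 8, or 7 and 9 at the 75th and 95th percentiles; at the 95th, 0 genes had a probe above on all 5 arrays in place of 3. No paired analysis was possible because each group holds 1 array, so leaving out an array was not possible either. Signal over background limits Ccne1, Ccna2, Cdk1, Mki67, Top2a and Mcm2.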
